A study of Mus musculus with 4 samples.

Results

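Genes of the endothelial glycocalyx were followed across vessel classes of mouse ear dermis, 7 in all: the sialomucins Podxl, Emcn and Cd34, the syndecans Sdc3 and Sdc4, and the glycan enzymes Ext1 and St6gal1. They were taken as a fixed list of 7 of the 46517 genes counted, by matching the Ensembl identifiers of the deposited rows to symbols, and no threshold on their measured values is part of the rule, although earlier results of these data were known when the list was made. All 7 were matched and all 7 passed the filter on low counts.

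The glycocalyx is the carbohydrate-rich coat on the luminal face of blood vessels. Sialomucins are transmembrane proteins whose long extracellular stalks carry many sialylated O-glycans, and they lend the surface negative charge. Podocalyxin (Podxl), endomucin (Emcn) and CD34 are all found on vascular endothelium, where suitably sulfated and fucosylated forms can also serve as ligands for selectins. Syndecans are membrane proteoglycans that carry heparan sulfate chains. Ext1 encodes one of the paired glycosyltransferases that extend the heparan sulfate backbone, and St6gal1 encodes the enzyme that caps N-glycans with α2,6-linked sialic acid.

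Blood vascular endothelial cells (BECs) of the ear were sorted as CD31+/CD45-/Lyve1- from wild-type female C57Bl/6 mice of 12 to 26 weeks, as the labels give the age (the study's methods name C57BL/6 J and another age range), and were profiled by Smart-seq2, which places 1 sorted cell in each well of a plate and counts reads without molecular identifiers. There were 4 plates of 384 wells, forming 2 replicates of 2 plates (A and B), and each replicate is described as a pool of cells from 6 mice. No group was treated or genetically altered, so the comparisons are those between vessel classes within a replicate, a part of the study's question of how barrier components are patterned from artery to vein. As the cells of a replicate come from 1 pool, the replicate and not the well is the unit of every test (n = 2). It is not stated outright that the 2 pools came from different mice, and if they did not, the p-values measure only the spread between preparations.

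Reads on genes numbered 31864976 to 74739095 per plate, and the median well held 40324 to 182926 of them, with replicate 1 the deeper one. Kept wells had enough reads and genes, and at least 2 of the BEC genes Kdr, Cdh5 and Pecam1 were read in them. They also had a CPM, the read count scaled to a common total of 1000000 gene reads, under 100 for every one of the mural genes Kcnj8 and Pdgfrb, the leukocyte gene Ptprc and the lymphatic genes Prox1 and Lyve1. This kept 338 wells of replicate 1 and 363 of replicate 2. Replicate 1 stood apart in that 97.0% of its kept wells held a read of the mural gene Kcnj8, against 20.9% in replicate 2, so a single read of a gene means less there and a limit of 10 CPM would have left 18 wells of replicate 1. The kept wells were clustered with all glycocalyx genes left out, and clusters were named from artery, capillary and vein markers. The artery-like class had 34 and 49 wells in replicates 1 and 2, the capillary-like class 115 and 20, and the vein-like class 61 and 48. The other 374 kept wells stayed unnamed. As the clusters were named from these markers, the marker sums describe the classes and do not test their names. The 12 artery markers summed to a mean of 4312 and 3357 CPM in artery-like wells against 913 to 1426 CPM in the other classes, and the 10 vein markers to 5846 and 6378 CPM in vein-like wells against 558 to 973 CPM. The 11 capillary markers summed to 18467 and 9201 CPM in capillary-like wells, but also to 11925 CPM in artery-like wells of replicate 1. The 6 leukocyte markers summed to at most 2.21 CPM in any class.

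The regions upstream of the transcription start are shown for Emcn, Cd34 and St6gal1, because these are the members for which summed counts of a class lay outside those of both other classes in both replicates. The sequences are from RefSeq on GRCm38.p6 (mm10), each is the 250 bases before the first RefSeq start on the plus strand, and capitals mark the letters GGAA or their reverse complement TTCC, the core bound by ETS factors, a family with many endothelial members.
Emcn, chr3:137340828-137341077: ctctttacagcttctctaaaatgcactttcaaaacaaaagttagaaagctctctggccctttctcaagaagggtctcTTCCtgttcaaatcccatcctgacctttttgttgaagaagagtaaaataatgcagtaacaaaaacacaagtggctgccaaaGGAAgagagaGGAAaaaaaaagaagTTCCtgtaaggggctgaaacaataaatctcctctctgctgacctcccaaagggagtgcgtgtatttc
Cd34, chr1:194938571-194938820: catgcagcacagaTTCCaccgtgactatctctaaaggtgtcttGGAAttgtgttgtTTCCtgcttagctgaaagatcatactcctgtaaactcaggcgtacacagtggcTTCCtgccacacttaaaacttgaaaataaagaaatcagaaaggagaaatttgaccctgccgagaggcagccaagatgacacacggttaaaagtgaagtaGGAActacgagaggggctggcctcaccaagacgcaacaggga
St6gal1, chr16:23224490-23224739: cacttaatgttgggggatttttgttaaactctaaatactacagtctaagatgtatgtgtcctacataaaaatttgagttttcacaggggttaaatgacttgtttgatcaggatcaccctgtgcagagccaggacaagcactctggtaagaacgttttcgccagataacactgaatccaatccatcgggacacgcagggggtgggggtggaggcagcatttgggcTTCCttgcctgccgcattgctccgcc
The Emcn window held 4 matches, the Cd34 window 5 and the St6gal1 window 1. Of 32851 such windows of all genes, 93.4% held at least 1 match, 33.4% at least 4 and 18% at least 5, with a median of 3, so none of these counts is unusual. St6gal1 has 3 RefSeq windows, of which the first is shown. The matches are a description of the letters and carry no measurement of binding.

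The 3 sialomucins were the most abundant of the 7 genes. Per kilobase of merged exons, so that genes of unequal length can be compared, mean levels over the wells of all 3 classes were 245 and 212 CPM for Cd34 in replicates 1 and 2, 176 and 166 CPM for Emcn, and 57.5 and 73.6 CPM for Podxl. The other 4 were far lower. St6gal1 had 5.76 and 9.35 CPM per kilobase, Ext1 had 4.67 and 5.08, Sdc3 had 15.4 and 1.30, and Sdc4 had 1.95 and 0.946. The order Cd34, Emcn, Podxl held in both replicates, while among the lower 4 the place of Sdc3 changed between replicates.

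**Figure D1:**
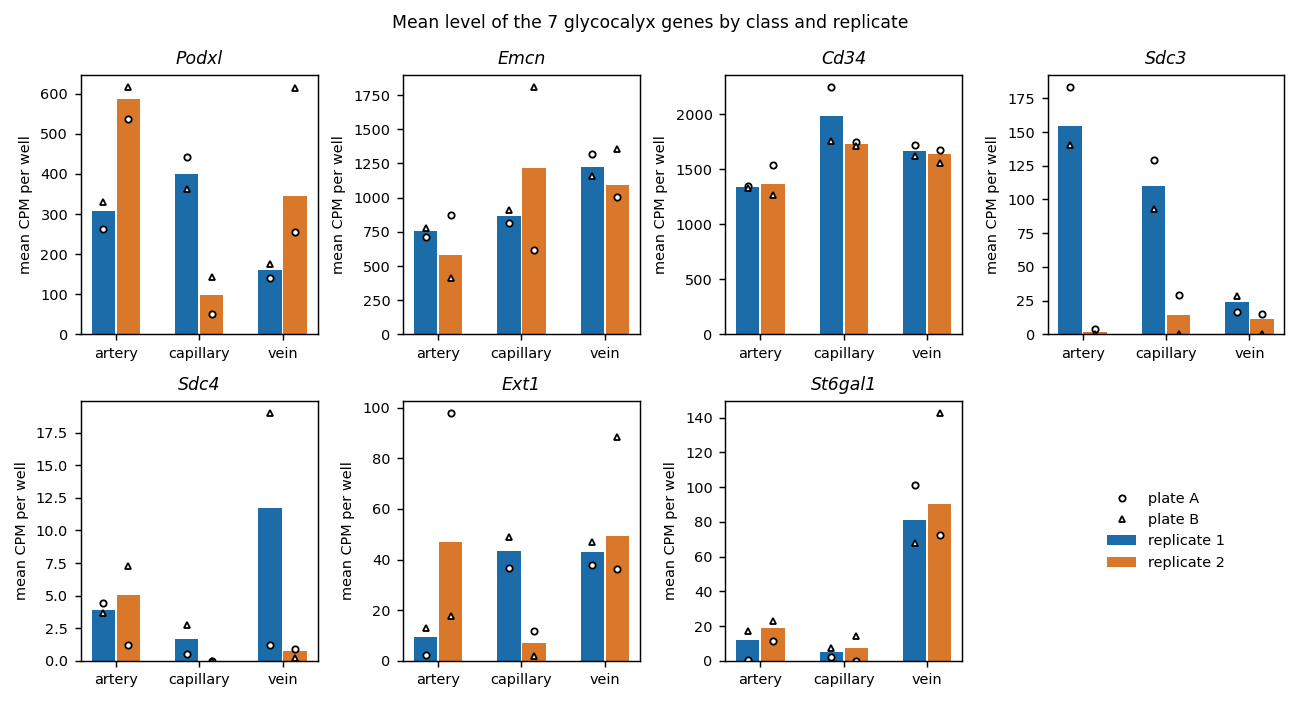
Mean CPM per well of each gene in artery-, capillary- and vein-like wells. Bars are replicates 1 and 2, open circles and triangles are the means of their plates A and B, and each panel has its own axis from 0. St6gal1 is highest in vein-like wells of both replicates (81.3 and 90.0 CPM), whereas Podxl and Sdc3 change their order between replicates.

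St6gal1 (chr16:23224740-23360350, plus strand) was highest in vein-like wells of both replicates. Mean levels in vein-like wells were 81.3 CPM in replicate 1 and 90.0 CPM in replicate 2, or 85.6 ± 6.16 CPM (SD, n = 2). Artery-like wells had 11.8 and 18.6 CPM, and capillary-like wells had 5.09 and 7.21 CPM. Vein-like wells exceeded the lowest class, capillary-like, by 16.0 and 12.5 times. The places of the other two classes rested on single wells: without the top well of each, artery-like wells had 1.4 and 11.4 CPM and capillary-like wells 2.30 and 0.257 CPM, and in the sums of replicate 2 the artery-like class (16.3 TMM-scaled CPM) was below the capillary-like class (18.1). The gap was also present on each plate, with vein-like means of 101 CPM (plate A) and 67.5 CPM (plate B) in replicate 1 and of 72.5 and 143 CPM in replicate 2, while no plate mean of another class was above 23.0 CPM. Few wells carried it. A read was found in 22 of 61 vein-like wells of replicate 1 (36.1%, exact 95% interval 24.2 to 49.4) and in 8 of 48 of replicate 2 (16.7%, 7.48 to 30.2), against 17.6% and 12.2% of artery-like and 15.7% and 10.0% of capillary-like wells. Wells were also thinned to 20000 reads, and wells with fewer reads were left out. In replicate 2 this left 46 of 49 artery-like, 16 of 20 capillary-like and 47 of 48 vein-like wells. After thinning, the shares were 27.9% and 14.9% in vein-like wells and 4.35% to 8.70% in the other classes. In replicate 1 the vein-like interval over all reads overlapped that of artery-like wells (6.76 to 34.5) but not that of capillary-like wells (9.55 to 23.6), and in replicate 2 it overlapped both. In replicate 2 the 2 highest wells gave over 50% of the summed vein-like level, the top one with 1264 CPM, and without that well the mean was 65.0 CPM. In lymphatic wells, which are endothelial too, St6gal1 had no read in 9 wells of replicate 1, where a share of 33.3% is the upper limit at 3 counts, and a mean of 1.62 CPM in 55 wells of replicate 2.

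The comparison was made on raw counts summed per class and replicate, with edgeR's quasi-likelihood test over 14382 genes, each class against the mean of the other 2, with the replicate as a block. St6gal1 in vein-like BECs was higher by 3.02 on the log2 scale (SE 0.94), with 3.43 in replicate 1 and 2.69 in replicate 2. Its unadjusted p was 0.0134 and its Benjamini-Hochberg adjusted p in edgeR was 0.860, so it did not pass the threshold of 0.05. No member passed that threshold in edgeR in any comparison. The share of all genes that did was 0% for artery-like, 0.00695% for capillary-like and 0.0209% for vein-like BECs. The vein-like calls were Selp, Sele and Ackr1, which had served to name the class, and the capillary-like call was Clu, lower by 4.01 on the log2 scale; these 4 genes are named after their values were seen. DESeq2's Wald test called 258 genes in vein-like BECs (1.79%), St6gal1 among them with a log2 fold change of 2.95 and an adjusted p of 0.0475. The difference kept its direction under all 16 alternatives tried, from 2.64 to 7.34 on the log2 scale, and the adjusted p of the other alternatives with a test was 0.470 or more. The TMM-scaled levels of the sums were 84.4 and 111 CPM in vein-like BECs and 4.45 to 18.1 CPM in the other 4 sums, without overlap. Of all genes tested, 8.76% had vein-like sums above all others in this way.

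Mural wells also held St6gal1, at 49.6 CPM in 8 wells of replicate 1 and 13.2 CPM in 38 wells of replicate 2. The 9 mural markers summed to 1056 and 360 CPM in vein-like wells, to 1355 and 373 CPM in artery-like wells and to 1603 and 1009 CPM in capillary-like wells. None of the 9 was at 0 in vein-like wells, and their part in the St6gal1 levels was not tested. A gene on the opposite strand, BC106179 (chr16:23220656-23225484), overlaps the 5′ end of St6gal1 over 200 exon bases, 4.07% of the member's merged exons, and also runs across the upstream window printed above. The strand setting of the counting is not given in the sources used here, so reads of the shared bases cannot be told apart. BC106179 was also the gene whose values across kept wells were most like those of St6gal1, with Pearson r of 0.54 over 338 wells of replicate 1 and 0.33 over 363 wells of replicate 2. The next were Icam1 (0.28 and 0.22), an adhesion molecule for leukocytes, and Dusp2 (0.19 and 0.24), a phosphatase of MAP kinases. These correlations are of log2(CPM + 1) across wells that share a plate and differ in depth, and are given as descriptions. The vein-like log2 fold change of BC106179 was 0.47 (SE 1.56), and the part of its reads in the St6gal1 levels was not tested.

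**Figure D2:**
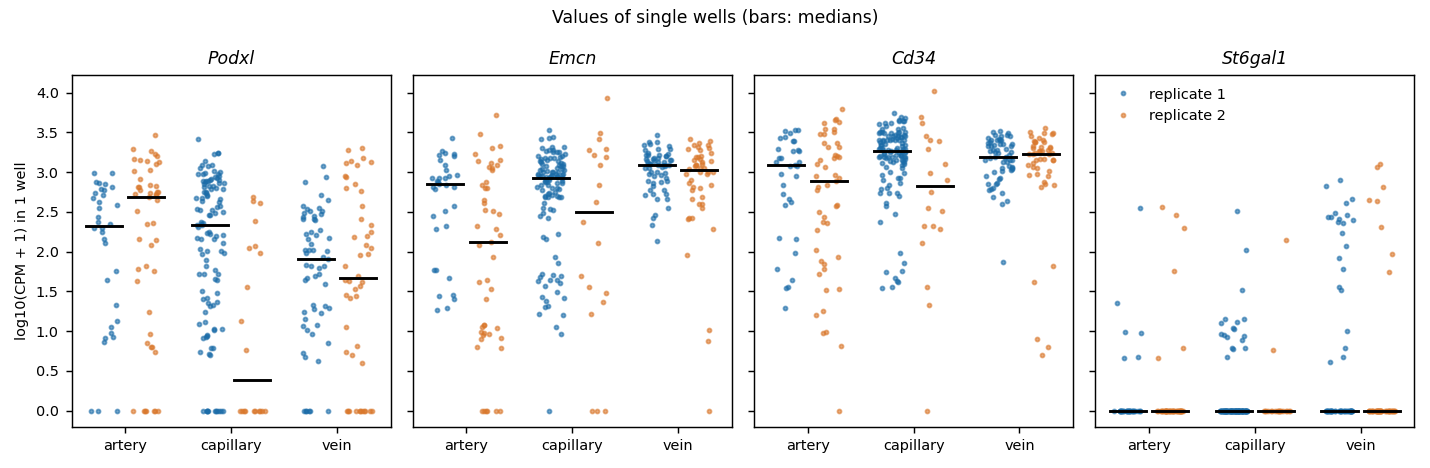
Values of single wells for Podxl, Emcn, Cd34 and St6gal1 as log10(CPM + 1), by class and replicate, with black bars at the medians. Emcn and Cd34 form a band near 1000 CPM in most vein-like wells, with low wells in every class of replicate 2, whereas St6gal1 is at 0 in most wells of every class.

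Emcn (chr3:137341067-137432185, plus strand), a sialomucin of capillary and venous endothelium in many tissues, was lowest in artery-like BECs of both replicates. Mean levels were 759 and 581 CPM in artery-like wells, 864 and 1215 CPM in capillary-like wells, and 1224 and 1090 CPM in vein-like wells. Capillary-like and vein-like wells exchanged places between replicates and did not differ beyond that spread. The artery-like sums were 811 and 614 TMM-scaled CPM, below the 856 to 1695 CPM of the other 4 sums, although the nearest gap was small. Of all genes tested, 5.93% had artery-like sums below all others. The artery-like difference was -0.72 on the log2 scale (SE 0.35), with -0.29 and -1.13 in the replicates, and it did not pass the test (unadjusted p 0.0752, adjusted p 1 in edgeR). It was negative under all 16 alternatives, from -2.68 to -0.22. Within replicate 2 the plates did not share the order: artery-like wells had 871 CPM on plate A, above the 620 CPM of capillary-like wells there, and 413 CPM on plate B.

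Well by well, Emcn was most uniform in the vein-like class. In replicate 1 all 61 vein-like wells had at least 100 CPM, as did 44 of 48 in replicate 2 (91.7%). The corresponding shares were 76.5% and 53.1% in artery-like wells and 80.9% and 60.0% in capillary-like wells. Median levels were 1241 and 1062 CPM in vein-like wells, 701 and 131 CPM in artery-like wells, and 835 and 328 CPM in capillary-like wells. In vein-like against artery-like wells of replicate 2 the shares with a read, after thinning, were 91.5% (79.6 to 97.6) and 63.0% (47.5 to 76.8). In replicate 1 they were 98.4% and 94.1%, with overlapping intervals. The capillary-like mean of replicate 2 rested on few wells, since 1 of 20 had 8603 CPM and the mean without it was 826 CPM. The genes most like Emcn across wells were Plvap (r of 0.31 and 0.41), the diaphragm protein of fenestrae and caveolae, followed by Gapdh (0.29 and 0.37) and Rpl8 (0.30 and 0.29), which are expressed in most cells.

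Cd34 (chr1:194938819-194961279, plus strand), also a surface marker of blood-forming progenitors and of dermal fibroblasts, was high in all 3 classes and differed least between them. Mean levels were 1986 and 1734 CPM in capillary-like wells, 1666 and 1644 CPM in vein-like wells, and 1337 and 1369 CPM in artery-like wells. The order was the same in both replicates, with the highest class 1.49 and 1.27 times the lowest. Capillary-like sums, at 1939 and 2059 TMM-scaled CPM, lay above the 1302 to 1652 CPM of the other 4, as 5.33% of all genes did. The difference was 0.39 on the log2 scale (SE 0.21), 0.43 and 0.34 in the replicates, and did not pass the test (unadjusted p 0.101, adjusted p 0.941 in edgeR). It was positive under all 16 alternatives, from 0.12 to 0.74. In replicate 2 the place of the capillary-like class depended on 1 well with 10653 CPM: the mean of the other 19 was 1264 CPM, below both other classes, and the median of all 20 was 679 CPM against 1702 CPM in vein-like wells. A read of Cd34 was found in 95% to 100% of wells in each class and replicate.

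Cells other than BECs bear on Cd34. In 7 wells of replicate 2 with fibroblast genes and little Pecam1, Cd34 had a mean of 1784 CPM, as high as in BECs, whereas in lymphatic wells it had 131 and 64.5 CPM. The 7 fibroblast markers summed to 344 and 178 CPM in capillary-like wells, 685 and 214 CPM in artery-like wells and 106 and 48.4 CPM in vein-like wells, against 17588 CPM in the fibroblast wells, and 1 of the 7 was at 0 in capillary-like wells of replicate 2. Their part in the Cd34 levels was not tested. The antisense gene Gm16897 (chr1:194955759-194976960) shares 148 exon bases with Cd34, 2.03% of its merged exons, and had the values most like it across wells, with r of 0.79 and 0.64. Without a known strand setting, reads of the shared bases cannot be told apart. Scarb1 (0.32 and 0.45), a receptor for high-density lipoprotein, and Pecam1 (0.31 and 0.42), the CD31 used in the sort, came next.

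Podxl (chr6:31519488-31563981, minus strand), the third sialomucin, did not keep an order of classes. In replicate 1 the mean levels were 399 CPM in capillary-like, 308 in artery-like and 161 in vein-like wells. In replicate 2 they were 587 CPM in artery-like, 345 in vein-like and 97.4 in capillary-like wells. Artery-like wells were above vein-like wells in both, by 308 to 161 CPM and by 587 to 345 CPM, but the capillary-like class moved from first to last. Across the replicates the artery-like mean was 448 ± 197 CPM, the capillary-like mean 248 ± 213 CPM and the vein-like mean 253 ± 130 CPM (SD, n = 2), and the classes overlapped. The fitted differences were 0.75 (SE 0.61) for artery-like, -0.25 (SE 0.67) for capillary-like and -0.51 (SE 0.64) for vein-like BECs on the log2 scale, and the lowest unadjusted p was 0.254. Thinned shares of wells with a read ran in the same direction for arteries and veins, with 79.4% and 76.1% of artery-like against 60.7% and 61.7% of vein-like wells, but their intervals overlapped in each replicate. Podxl was as high in lymphatic wells, at 507 and 324.5 CPM, and low in mural wells, at 101 and 8.56 CPM. The genes most like it across wells were Cd200 (r of 0.27 and 0.29), an immune regulatory membrane protein, Cdh5 (0.24 and 0.23), the VE-cadherin of endothelial junctions, and Ly6e (0.22 and 0.35).

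Wells in which all 3 sialomucins were read were more common in replicate 1. In that replicate the share with a read of each was 91.2% of artery-like, 89.6% of capillary-like and 90.2% of vein-like wells. In replicate 2 it was 71.4%, 45.0% and 75%, in the same order. After thinning, the shares were 60.7% to 64.7% in replicate 1 and 34.8% to 46.8% in replicate 2, and in the vein-like class they were 37 of 61 and 22 of 47 wells. Only 1 of the 327 wells of the 3 classes, a capillary-like one of replicate 2, had no read of any of the 3. Within replicates the levels of Emcn and Cd34 correlated across kept wells at 0.23 and 0.35, those of Podxl and Cd34 at 0.07 and 0.24, and those of Podxl and Emcn at -0.02 and 0.12.

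**Figure D3:**
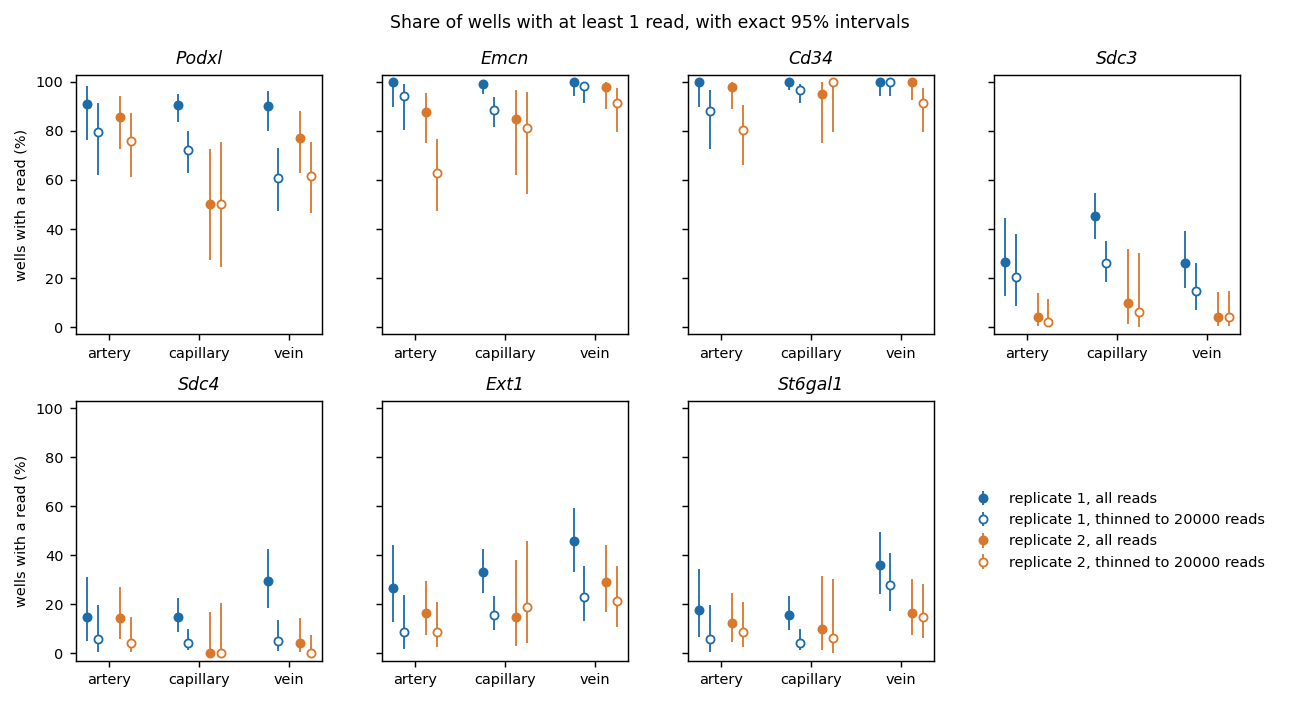
Share of wells with at least 1 read of each gene, by class and replicate, with exact 95% intervals that cover counting error only. Filled points use all reads and open points wells thinned to 20000 reads. Sdc3 is read in 26.2% to 45.2% of wells in replicate 1 and in 4.08% to 10.0% in replicate 2, whereas Cd34 is read in nearly all wells of both.

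The syndecans were low, and neither kept 1 order of classes in both replicates. Sdc3 (chr4:130792537-130826319, plus strand), a syndecan best known from the nervous system, had 154, 110 and 23.8 CPM in artery-, capillary- and vein-like wells of replicate 1. In replicate 2 the same classes had 1.71, 14.7 and 11.1 CPM. Its level in replicate 1 was made by few wells, as 3 of 34 artery-like wells gave over 50% of the class total and 25 of the 34 had no read. In replicate 2, 2 of 49 artery-like, 2 of 20 capillary-like and 2 of 48 vein-like wells had a read. The fitted differences were 0.27 (SE 1.47), 0.85 (SE 1.20) and -1.11 (SE 1.35) on the log2 scale for artery-, capillary- and vein-like BECs, and none passed the test. In artery- and capillary-like wells the gap between replicates was present on both plates, and after thinning to 20000 reads the share of wells of all 3 classes with a read was 21.9% (16.5 to 28.1) in replicate 1 and 3.67% (1.01 to 9.13) in replicate 2. Sdc3 was read in 4 of 8 mural wells of replicate 1 at a mean of 3.44 CPM and in none of 38 mural wells of replicate 2 (upper limit 7.89% of wells). Gpihbp1, the capillary protein that binds lipoprotein lipase, was the gene most like it across wells (r of 0.22 and 0.15), before Mtdh (0.14 and 0.17) and Slc35e1 (0.14 and 0.18). The antisense genes Gm26716 and Gm12970 share 415 and 48 exon bases with Sdc3, 6.93% and 0.801% of its merged exons, and reads of those bases cannot be told apart.

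Sdc4 (chr2:164424247-164443887, minus strand), the widely expressed syndecan of focal adhesions, was low in BECs. Mean levels were 3.90 and 5.04 CPM in artery-like, 1.70 and 0 CPM in capillary-like and 11.7 and 0.729 CPM in vein-like wells. The vein-like means rested on few wells, with 7.12 and 0.0557 CPM without the top well of each replicate, and plates A and B of replicate 1 had 1.23 and 19.0 CPM. No read was found in 20 capillary-like wells of replicate 2 (upper limit 15% of wells). A read was found in 14.7% and 14.3% of artery-like wells, in 14.8% of capillary-like wells of replicate 1, and in 29.5% and 4.17% of vein-like wells. After thinning, the share was at most 5.88% in any class and replicate. Fibroblast and lymphatic wells held more of it, with means of 522 CPM and of 153 and 94.4 CPM. The mural wells had 13.1 CPM in replicate 1, near the vein-like mean there, and 70.9 CPM in replicate 2. The genes most like Sdc4 across kept wells were the fibroblast collagens Col1a2 (r of 0.25 and 0.28) and Col3a1 (0.35 and 0.24) and the lipid desaturase gene Scd1 (0.29 and 0.21). How much of the Sdc4 read in BEC wells came from other cells was not tested. The fitted differences had standard errors of 1.6 to 2.09 on the log2 scale and none passed the test.

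Ext1 (chr15:53064038-53346159, minus strand) had 9.53, 43.3 and 43.1 CPM in artery-, capillary- and vein-like wells of replicate 1 and 47.0, 6.94 and 49.2 CPM in those of replicate 2. The vein-like mean was 46.2 ± 4.35 CPM (SD, n = 2), although the vein-like sums were 29.9 and 59.5 TMM-scaled CPM, while artery-like and capillary-like wells exchanged places. The artery-like value of replicate 2 came largely from 1 well with 1741 CPM, without which the mean was 11.7 CPM. Shares of wells with a read were highest in the vein-like class of both replicates, 45.9% and 29.2% against 26.5% and 16.3% of artery-like and 33.0% and 15% of capillary-like wells, with overlapping intervals in each replicate. The vein-like difference was 0.73 on the log2 scale (SE 1.19, unadjusted p 0.555), and the direction changed under 3 of 16 alternatives. Ext2, which encodes the partner of Ext1 in the same polymerase, was higher per kilobase than Ext1 and had 229 and 232 CPM in artery-like, 170 and 65.5 CPM in capillary-like and 265 and 245 CPM in vein-like wells. Its capillary-like sums lay below all others, as 7.85% of all genes did, with a difference of -1.58 (SE 0.74, adjusted p 0.941 in edgeR). The genes most like Ext1 were N4bp2l2, Sec61b and Prkaca, with r of at most 0.20.

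**Figure D4:**
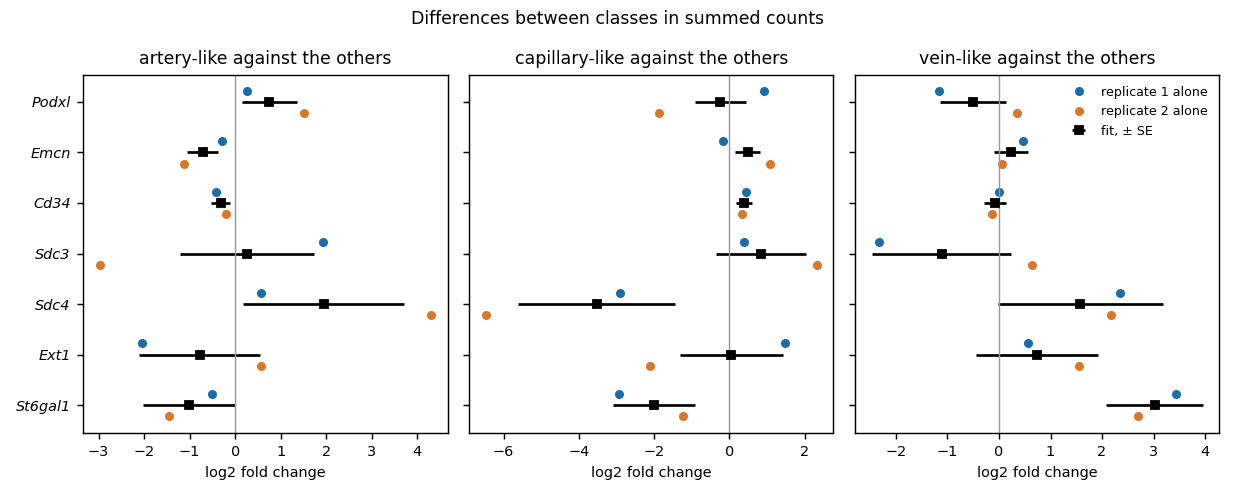
Differences of each class from the mean of the other 2 in summed counts, as log2 fold changes. Squares are the fit over both replicates with its standard error, and circles are replicates 1 and 2 alone. St6gal1 lies near 3 in vein-like BECs in the fit and in each replicate, and Podxl, Emcn, Sdc3 and Ext1 have replicates on opposite sides of 0 in at least 1 comparison.

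Taken by comparison, 4 of the 7 members were higher in vein-like BECs in both replicates (Emcn, Sdc4, Ext1 and St6gal1) and 1 was lower (Cd34, with differences of only -0.0075 and -0.13). Sdc4 counts there only because its capillary-like sum of replicate 2 was 0. With that sum set to 3 counts, its vein-like difference was 2.36 in replicate 1 and -1.22 in replicate 2, and its capillary-like difference was -2.92 and 0.29, so Sdc4 would keep neither direction. Of all genes tested, 35.3% were higher and 19.7% lower in both. In artery-like BECs 2 were higher and 3 lower in both replicates, against 28.1% and 23.4% of all genes, and in capillary-like BECs 2 were higher and 2 lower, against 22.5% and 27.9%. The members' median differences were -0.32, 0.05 and 0.23 on the log2 scale for artery-, capillary- and vein-like BECs, beside 0.02, -0.18 and 0.21 for all genes tested, and the members' medians stayed the same with Sdc4 at those 3 counts. St6gal1 in vein-like BECs was the only member with an unadjusted p below 0.05 in a comparison of 1 class, which 4.78% of all genes had there. In the test of any difference between the 3 classes St6gal1 alone was again below it (unadjusted p 0.0380, adjusted p 1 in edgeR), as were 3.82% of all genes. No member had artery-like sums above all others, as 7.13% of all genes did.

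**Figure D5:**
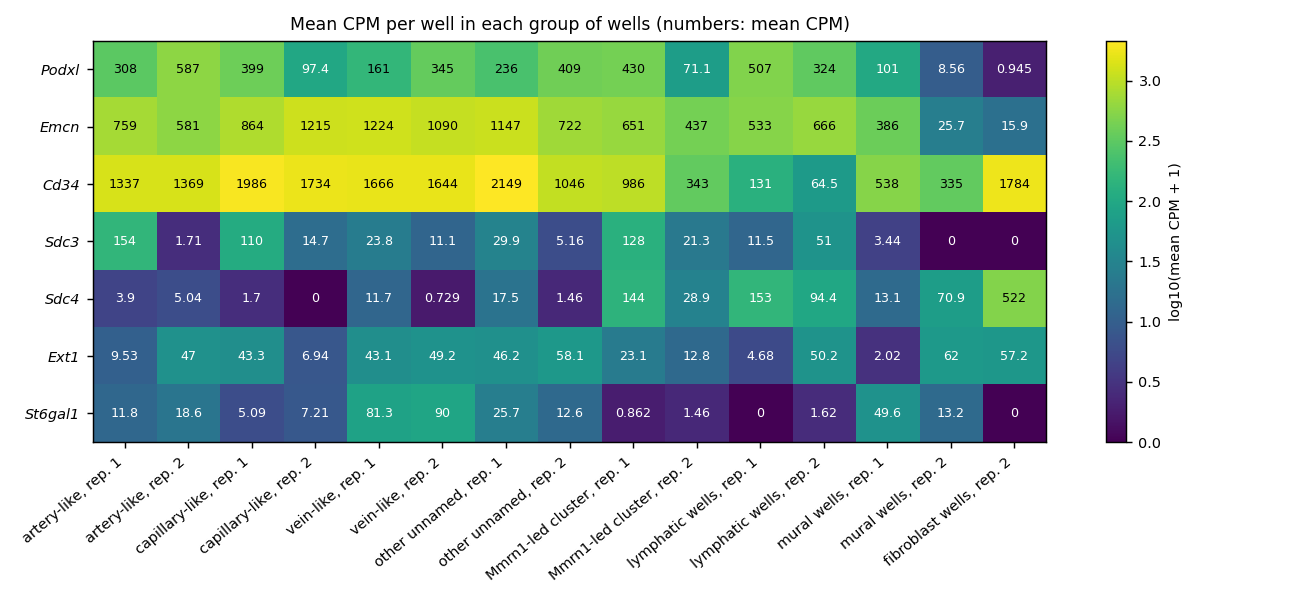
Mean CPM per well of the 7 genes in each group of wells and replicate, with color on a log10(mean CPM + 1) scale and the mean CPM printed in each cell. Fibroblast wells were found in replicate 2 only. Sdc4 is highest in fibroblast (522 CPM) and lymphatic wells (153 and 94.4 CPM), and Cd34 is low in lymphatic wells (131 and 64.5 CPM).

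A wider list of 142 genes of the glycocalyx and its synthesis, in 12 groups by role, set these 7 genes in their pathways. All were matched, 133 had a read in the wells of the 3 classes and 106 passed the filter for the tests. None of the 106 passed the threshold in edgeR in any comparison, and 7, 3 and 8 had an unadjusted p below 0.05 in artery-, capillary- and vein-like BECs, or 6.60%, 2.83% and 7.55% against 4.07%, 3.72% and 4.78% of all genes tested. The list's median differences were 0.11, -0.33 and 0.31 on the log2 scale in the same order. DESeq2's Wald test called 2, 2 and 3 list genes, named here after their values were seen: St8sia6 (3.88) and St3gal5 (-7.73) in artery-like, Chsy1 (4.19) and Sdc1 (-4.14) in capillary-like, and Chst14 (4.64), B3galt6 (6.58) and St6gal1 in vein-like BECs, with log2 fold changes in parentheses. The same test called 2.43%, 1.75% and 1.79% of all genes, so these 2, 2 and 3 of 106 are near the background. Some of these fold changes rest on sums at or near 0. St3gal5 was at 0 in both artery-like sums, and B3galt6 had at most 0.289 TMM-scaled CPM outside vein-like BECs. The vein-like difference of Chst14 was -0.52 in replicate 1 alone and 7.03 in replicate 2 alone.

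Among sialyltransferases, which add the terminal sialic acids of these glycans, 13 of 20 were tested and none was called by edgeR. In vein-like BECs 3 of the 13 were higher and 7 lower in both replicates, with a median difference of -0.55, against 35.3% and 19.7% of all genes and a median of 0.21. St6gal1 was not the most abundant of them. St3gal6, which adds α2,3-linked sialic acid, had 275 and 281 CPM in artery-like, 201 and 387 CPM in capillary-like and 397 and 372 CPM in vein-like wells, with a vein-like difference of 0.18 (SE 0.39). St3gal4, of the same linkage and known for its part in selectin ligands, had 221 and 149 CPM in vein-like wells, 24.5 and 86.6 CPM in artery-like and 41.9 and 139 CPM in capillary-like wells, with a vein-like difference of 1.63 (SE 0.85, adjusted p 1 in edgeR). That difference was 2.92 in replicate 1 but -0.25 in replicate 2. In the sums of replicate 2 the capillary-like class (247 TMM-scaled CPM) was above the vein-like class (137). St6galnac2, which acts on O-glycans, had 167 and 261 CPM in artery-like wells against 71.1 to 142 CPM in the other classes, and an artery-like difference of 1.08 (SE 0.56). In the supply of sialic acid, Slc35a1, the transporter of its activated form, had 86.2 and 62.7 CPM in artery-like and 18.1 to 51.0 CPM in other wells. Gne, the first enzyme of the synthesis, and Nans, which follows it, kept no order of classes in both replicates. The sialidase Neu1 of the lysosome had 31.6 to 119 CPM and no order, and Neu3 had at most 10.3 CPM.

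Of 16 proteoglycan cores 13 were tested and none was called by edgeR. Hspg2, the basement membrane proteoglycan perlecan, had 155 to 623 CPM over the 6 class means, Srgn, the core of secretory granules, had 154 to 342 CPM, and Bgn, a small matrix proteoglycan, had 742 and 368 CPM in vein-like wells against 69.0 to 221 CPM elsewhere. The Bgn sums were closer, with 673 and 370 TMM-scaled CPM in vein-like BECs against 50.7 to 354 in the other classes. The Bgn difference was 1.31 (SE 0.87) and did not pass the test. In heparan sulfate synthesis 10 of 11 genes were tested. Beside Ext1 and Ext2, Fam20b, a kinase of the linkage region, had 24.3 to 111 CPM and Extl3, which starts the chain, 8.90 to 91.9 CPM. In this group 6 of 10 genes were higher and none lower in vein-like BECs in both replicates, with a median difference of 1.06, and none was higher and 5 lower in capillary-like BECs, with a median of -1.44. Of all genes tested, 35.3% were higher in both replicates in vein-like BECs and 27.9% lower in both in capillary-like BECs, with medians of 0.21 and -0.18. Extl2 and B3galt6 are among both the 6 and the 5, and their capillary-like sums of replicate 2 were 0. Their capillary-like differences in that replicate were -6.99 and -6.96, and no floor of 3 counts was applied to them. None of the 10 passed the test in edgeR, and the group is 1 of 12. Among the modifying enzymes, the sulfate donor synthases Papss2 and Papss1 had 34.7 to 193 CPM and 1.62 to 157 CPM, and Ndst1, the deacetylase and sulfotransferase of the chain, had 37.5 to 126 CPM. None of the 3 passed the test in edgeR.

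The remaining groups were likewise without calls in edgeR. Among chondroitin and dermatan sulfate enzymes Chst15 had 47.7 to 102 CPM, Csgalnact1 34.3 to 96.7 CPM and Chst12 41.5 to 119 CPM. Of the hyaluronan genes Hyal2, a surface hyaluronidase, had 2.57 to 202 CPM, Cemip2 51.1 to 155 CPM and Cd44, the hyaluronan receptor, 126 and 64.6 CPM in capillary- and artery-like wells of replicate 1 and at most 2.22 CPM in the other 4 class means. Among the O-glycan and selectin ligand enzymes Galnt15 had 222 to 377 CPM, B3gnt3, which extends core O-glycans, 68.8 to 450 CPM, and Gcnt2 40.1 to 253 CPM. The cytoplasmic partners tie podocalyxin and syndecans to the cytoskeleton and to scaffolds. Among them Slc9a3r2, a PDZ scaffold that binds podocalyxin, had 911 and 845 CPM in vein-like wells against 946 to 2052 CPM in the others, with a vein-like difference of -0.87 (SE 0.29, unadjusted p 0.0189, adjusted p 0.947 in edgeR). Its vein-like sums lay below all others, as 4.44% of all genes did. Msn, the linker moesin, had 907 to 2010 CPM, and Sdcbp, the syndecan-binding syntenin, had 869 and 961 CPM in vein-like and 248 to 646 CPM in other wells, with a vein-like difference of 0.72 (SE 0.31, adjusted p 1 in edgeR). Of the sheddases, which cleave surface proteins, Adam15 had 308 to 732 CPM, Adam10 80.8 to 265 CPM and Adam17 36.2 to 144 CPM.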

How the data were processed

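Mouse ear dermal BECs were analysed in 2 replicates of 2 plates. Per the labels and the study's methods, the authors prepared Smart-seq2 libraries, sequenced single 50-bp reads and aligned them to mm10 (TopHat2 2.1.1). Duplicates were removed (SAMtools 0.1.18) before reads were assigned to genes (Subread 1.4.6-p5). What they deposited are raw counts for every gene in every well. Removing reads at identical positions limits the counts of short abundant genes. Gene annotation release and strand setting are not given in the sources used here. GENCODE vM21 matched 46005 of 46517 identifiers; the 92 spike-ins stayed out of all totals and tests.

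Wells with at least 600 counts, 500 to 8000 genes and the marker limits were kept. A limit of 100 CPM for non-BEC genes was used because 10 CPM left 18 wells in replicate 1. No doublet caller was run, and the upper limit on genes and the limit on non-BEC genes were the only guards against doublets. No well name was shared between plates (0 of 1536 wells). With scran 1.30.0 for size factors and variable genes, 1000 genes without the listed glycocalyx genes, 15 components and 15 neighbours entered leidenalg 0.10.2, at the lowest resolution (1) that gave all 3 classes in both replicates. Clusters were named for the class that had most of its markers raised (by 1.25 times or more in both replicates), given 3 or more such markers, 10 or more wells and 1 of the markers among the 10 leading genes. These rules were set after trial clusterings. Reference wells were those with at least 300 CPM of Pdgfrb or Kcnj8 and under 100 CPM of Pecam1 (mural), at least 300 CPM of Col1a1 plus Col1a2, at least 100 CPM of Pdgfra and under 100 CPM of Pecam1 (fibroblast), or at least 100 CPM of Prox1 and of Mmrn1 and under 100 CPM of Pdgfrb and of Kcnj8 (lymphatic).

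Counts were summed per class and replicate (1846956 to 16807767 reads). Genes reaching 10 counts in 2 or more sums entered the quasi-likelihood test of edgeR 4.0.16, with TMM scaling, the replicate as a block and 2 residual degrees of freedom, two-sided, with Benjamini-Hochberg adjustment over all genes. The block follows the design, because a replicate's 3 classes were sorted from 1 pool of mice, and deviations of same-replicate sums correlated at 0.103, 0.131 and 0.066. The edgeR test was also run on simulated counts whose changes were known, and its outcome there is not reported here. Shares have exact binomial (Clopper-Pearson) 95% intervals, and a count of 0 allows up to 3 counts; both cover counting error only. Alternatives were DESeq2 1.42.0, its size factors, no low-count filter, no block, limma 3.58.1 on mean CPM (log2, pseudocount 1), single plates, single replicates, other limits and classes, and thinning. R 4.3.3 and Python 3.11.15 were used.

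The named genes are the 7 members, the up to 3 genes of highest mean CPM in each role group, and the 3 genes most like each member among genes read in at least 10% of kept wells of each replicate. The members and lists were chosen with earlier results of these data known.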

Additional observations from a re-analysis of the deposited data

How the results depend on the processing

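The limits are those of 2 replicates, 20 capillary-like wells in replicate 2 and reads of mural genes in nearly all wells of replicate 1. The median dispersion of the sums was 0.941, and a member that missed the threshold is not shown to be alike in the classes. Numbers of genes called move with the processing and are given as artery-like, capillary-like, vein-like and any difference, where edgeR with the block gave 0, 1, 3 and 3. DESeq2's size factors and no replicate block each gave 0, 0, 3 and 2, and pairing by replicate changed no call of a member. DESeq2's Wald test gave 349, 251, 258 and 165. No low-count filter gave 30, 33, 69 and 89, and limma on mean CPM 0 for each, with 780, 800, 780 and 800 genes at an unadjusted p under 0.05. Plate A alone gave 12, 13, 26 and 31, and plate B alone 1, 2, 11 and 10. A limit of 300 CPM gave 13, 4, 33 and 27, and a limit of 10 CPM with the classes kept, chosen after seeing the data, 1, 8, 18 and 21; clustering anew at 10 CPM could not be fitted, as no resolution gave all 3 classes. All 3 BEC genes required gave 0, 1, 5 and 4, the next higher resolution 0, 0, 8 and 4, classes from marker scores 0, 0, 3 and 0, glycocalyx genes not left out of the clustering 3, 1, 19 and 8, and thinned wells 9, 8, 24 and 21. List genes called were 0 except for 2, 2, 3 and 0 with DESeq2's Wald test and 1 (Bgn, vein-like) on plate A alone. A single replicate allowed no test.

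The direction of a member's difference was kept under all 16 alternatives for St6gal1, in each of the 3 comparisons, and for Cd34 and Emcn in artery-like, Cd34 in capillary-like and Emcn in vein-like BECs. For Sdc4 it was kept in capillary- and vein-like BECs under the 13 alternatives that gave a value, but not with its sum of 0 set to 3 counts, a setting chosen after seeing the data. On plate A alone, at 10 CPM and after thinning Sdc4 did not pass the low-count filter. None of the differences that turned had passed the test, and the cause was not tested. On the log2 scale Podxl turned with the 10 CPM limit to -0.51 (artery-like) and 0.80 (capillary-like) and with marker scores to 0.77 (capillary-like). Emcn in capillary-like BECs was -0.083 on plate A. Cd34 in vein-like BECs was 0.063 with limma, 0.049 on plate B, 0.84 at 10 CPM, 0.0039 at 300 CPM, 0.021 at the next resolution and 0.13 with marker scores. Sdc3 in artery-like BECs was -0.39 with limma, -3.46 at 10 CPM, -0.62 at 300 CPM, -3.37 with marker scores and -0.23 with glycocalyx genes in the clustering, and in capillary-like BECs -0.20 on plate B. Sdc4 in artery-like BECs was -0.042 at 300 CPM. Ext1 was 0.41 in artery-like BECs with glycocalyx genes in the clustering. In capillary-like BECs Ext1 was -0.19 with no replicate block, -0.80 with limma, -0.67 on plate B, -1.26 at 10 CPM, -0.079 with all 3 BEC genes, -0.34 with glycocalyx genes in the clustering and -0.20 after thinning, and in vein-like BECs -0.20 on plate A, -0.094 with marker scores and -0.077 with glycocalyx genes in the clustering. With a single replicate the values ranged from -1.87 to 0.91 for Podxl, -0.18 to 1.06 for Emcn and -2.12 to 1.47 for Ext1 in capillary-like BECs, from -1.16 to 0.35 for Podxl and -2.32 to 0.65 for Sdc3 in vein-like BECs, and from -2.97 to 1.94 for Sdc3 and -2.04 to 0.56 for Ext1 in artery-like BECs.

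Of the 21 mean levels, 0 moved by more than the SD between replicates after thinning, 4 with the CPM of summed counts, 6 with scran size factors, 10 at 300 CPM and 15 as geometric means. Of the 21 shares of wells, 11 moved after thinning and 9 when 2 reads were required.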

Other observations

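The 374 unnamed wells hold members at levels that belong to no comparison above. A cluster of 70 of them (11 and 59 wells in replicates 1 and 2) had 4 of the 10 vein markers raised, Lrg1, Ackr1, Il1r1 and Slco2a1, but none among its leading genes, and so was left out of the vein-like class. Its Emcn levels were 1477 and 1288 CPM and its Cd34 levels 1552 and 1624 CPM, close to those of vein-like wells. Its St6gal1 levels were 71.8 and 21.6 CPM, found in 18.2% and 3.39% of its wells, and without the top well of each replicate they were 5.31 and 2.74 CPM. Podxl there was at 178 and 460 CPM (99.2 and 406 without the top well) and Ext1 at 137 and 66.5 CPM (38.6 and 44.3).

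A cluster of 136 wells (39 and 97) was led by Mmrn1 and had 5 lymphatic, 7 mural, 4 keratinocyte, 2 fibroblast (Col1a2 and Col3a1) and 2 Schwann cell markers raised. Its Sdc4 levels were 144 and 28.9 CPM, or 39.1 and 12.5 CPM without the top well of each replicate, and its St6gal1 levels were 0.862 and 1.46 CPM, below those of every named class. Cd34 was at 986 and 343 CPM and Emcn at 651 and 437 CPM. No test was made on these wells.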
